A study of Mus musculus with 39 samples.

Results

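The hind paw skin of female C57 mice was examined 16 days after paclitaxel, a chemotherapy agent that stabilizes microtubules and is known for a painful neuropathy of hands and feet. The libraries were chosen by their labels: 3 from day 16 after paclitaxel and 3 from vehicle, 6 of the 39 libraries of the series. Mice were 8 to 12 weeks old. The labels name no altered allele for any group, call the vehicle mice WT and call this paclitaxel (PTX) schedule short. The day 16 females had been given 2 intraperitoneal injections of paclitaxel at 3 mg/kg, 1 day apart, and days were counted from the last injection. Vehicle females were sampled 1 day after vehicle, so the groups differed in the time since injection as well as in the drug. Set beside them were 9 libraries of paclitaxel females sampled on days 2, 6 and 26 (3 a day) and 3 of paclitaxel males sampled on day 15. All were given the same dose and number of injections. The titles of the males carry the letters LC, which those of the females lack, and do not explain them. All were punch biopsies of the hind paw, read as stranded poly(A) RNA over 50 bases. Whether the 3 libraries of a group came from different mice is not stated in the labels. The p-values therefore reflect the spread among libraries alone, which may be technical. That spread was estimated over all 24 paw libraries (8 groups of 3), which include paclitaxel males of days 2 and 6.

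Libraries held 18144641 to 20925174 reads in genes at day 16 and 17421377 to 20880693 in vehicle. Among uniquely placed reads, 0.205% to 0.209% at day 16 and 0.582% to 0.632% in vehicle were set aside as lying in several genes. This share was 0.205% to 0.24% in the females of days 2, 6 and 26 and 0.539% to 0.566% in paclitaxel males. The treated females thus form 1 library set, and vehicle females lie with the males in another. In the comparison of day 16 with vehicle, paclitaxel and the library set cannot be told apart. The main results are therefore set beside day 16 against the mean of days 2, 6 and 26, which lies within 1 library set. They are also set beside male day 15 against vehicle, which lies within the other but differs in sex and in the LC of the male titles. These comparisons share the day 16 or the vehicle libraries, and their values are set side by side only.

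The keratins, collagens and other defining genes of epidermis and dermis were read in every library. Levels are given in CPM, counts scaled to the library size. Krt10, a keratin of the upper epidermis, had 41550, 48420 and 63720 CPM at day 16, against 33460, 38080 and 31350 in vehicle. Skeletal muscle RNA varied widely. The summed level of 28 muscle genes was 30630, 25770 and 1294 CPM in the 3 day 16 libraries, against 21840, 125.3 and 10000 in vehicle. Day 16 replicate 3 and vehicle replicate 2 held the least muscle RNA and stood apart from the other libraries of their groups on the first principal component (51.7 against -19.8 and -8.12 at day 16, and 56.4 against -31.5 and -12.3 in vehicle). None of the 28 muscle genes passed the test. Day 16 replicate 3 was also low in 20 endothelial and pericyte genes (1473, 1679 and 735.0 CPM at day 16, against 1516, 1462 and 1725 in vehicle) and in 18 adipocyte genes (4012, 4307 and 2809 at day 16, against 5202, 4898 and 4417 in vehicle). A change is a log2 difference with its standard error. A gene passed when edgeR's quasi-likelihood test gave an adjusted p (Benjamini-Hochberg) below 0.05. In bulk skin, fewer cells of a type and less RNA per cell cannot be told apart.

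Skin renews itself from dividing basal keratinocytes, which move up, switch keratins and die as cornified cells held together by loricrin, involucrin and small proline-rich proteins. Injured or inflamed epidermis switches on a further keratin set, Krt6, Krt16 and Krt17, together with alarmins and antimicrobial peptides that signal to immune cells. Hair follicles grow in cycles, and only a growing follicle makes the hair keratins and keratin-associated proteins (KRTAPs) of the shaft and its inner sheath.

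Of 15346 genes tested, 3331 passed in day 16 against vehicle (21.7%), 1745 of them higher (11.4%) and 1586 lower (10.3%). The balance of directions was not stable: 1625 were higher and 1710 lower with relative log expression scaling, 1806 higher and 1880 lower with DESeq2, 1044 higher and 1328 lower with only the compared groups in the fit, and 1226 higher and 1527 lower without day 16 replicate 3. Against the mean of days 2, 6 and 26, 635 passed (4.14%), 405 higher (2.64%) and 230 lower (1.5%). In male day 15 against vehicle, 676 passed (4.41%), 324 higher (2.11%) and 352 lower (2.29%). Genes that passed with a change of more than 1 on the log2 scale made up 4.62%, 1.22% and 1.3% of genes in the 3 comparisons, in that order. The libraries of day 16 and vehicle did not overlap for 37% of genes (18.7% with day 16 above and 18.2% with day 16 below). Those of day 16 and the other treated days did not overlap for 4.2% (2.13% above and 2.07% below), and those of male day 15 and vehicle for 30% (14.3% above and 15.7% below). Without day 16 replicate 3, 2753 passed against vehicle and 107 against the other treated days. Of 132 genes selected for naming that passed against vehicle, 88 also passed without that library and 80 without vehicle replicate 2. Of 65 that passed against the treated days, 24 also passed without day 16 replicate 3. Against vehicle 25.2% of 4098 genes whose exons overlap a gene on the opposite strand passed, and 19.6% of 10086 genes with no overlap and no named pseudogene. The strand setting used for counting is not given in the sources used here, so values of genes named with an overlap are uncertain.

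A group of wound keratins and alarmins rose at day 16 against vehicle and against the other treated days. Of 26 such genes in the files 25 were tested. Against vehicle 11 rose and 1 fell (background 11.4% and 10.3%), with a median log2 change of 1.55, against 0.03 for all genes. Against days 2, 6 and 26, 11 rose and none fell (background 2.64% and 1.5%), with a median of 1.20, against 0 for all genes. In male day 15 against vehicle 3 rose (background 2.11%), with a median of 1.07. The list was chosen with earlier results of these data known.

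Krt16, a keratin of injured and thickened epidermis, had 106, 104 and 267 CPM at day 16, against 17.7, 31.1 and 20.2 in vehicle. Every day 16 library was above every vehicle library and above the 9.08 to 64.5 of the 9 libraries of the other treated days. The log2 change was 2.79 ± 0.63 against vehicle (adjusted p = 0.00364) and 2.68 ± 0.44 against the treated days (adjusted p = 0.00161). Its partner Krt6a had 140.1, 100.4 and 311 at day 16, against 51.8, 62.2 and 74.5 in vehicle, a change of 1.55 ± 0.39 (adjusted p = 0.00753) and of 1.43 against the treated days (adjusted p = 0.00849). The exons of Krt6a overlap predicted genes on the opposite strand, so its counts are uncertain. Krt17 had 255, 247 and 623 at day 16, against 166, 183 and 209.9 in vehicle (1.01 ± 0.28, adjusted p = 0.0147, and 1.16 against the treated days, adjusted p = 0.00441). For all 3 keratins day 16 replicate 3 was the highest library. Without it the changes against vehicle were 2.18 for Krt16 (adjusted p = 0.0223), 0.92 for Krt6a (0.0802) and 0.42 for Krt17 (0.198). Against the treated days, none of the 3 keratins passed without that library (adjusted p 0.0507, 0.2 and 0.141). The males of day 15 had changes from vehicle of 2.02 for Krt16 (adjusted p = 0.0693), 1.45 for Krt6a (adjusted p = 0.0405) and 1.07 for Krt17 (adjusted p = 0.038).

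A secreted group rose beside the keratins. Chi3l1, a chitinase-like glycoprotein released in tissue damage, had 43.8, 17.4 and 67.3 CPM at day 16, against 5.73, 3.19 and 2.83 in vehicle. The groups did not overlap, and the other treated days lay at 2.71 to 10.4. Its change was 3.45 ± 0.47 against vehicle (adjusted p = 3.28e-05) and 3.01 ± 0.32 against the treated days (adjusted p = 0.000146). Defb14, an antimicrobial beta-defensin, had 16.8, 20.03 and 19.7 at day 16, against 3.95, 4.04 and 4.26 in vehicle, with close replicates in both groups. It rose by 2.20 ± 0.23 against vehicle (adjusted p = 1.63e-06) and by 1.20 ± 0.17 against the treated days (adjusted p = 0.000377). Both genes also passed in both comparisons without day 16 replicate 3, at 2.95 and 2.53 for Chi3l1 and 2.16 and 1.18 for Defb14. In male day 15 against vehicle their changes were 1.34 (adjusted p = 0.0966) and 0.62 (adjusted p = 0.127).

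**Figure D1:**
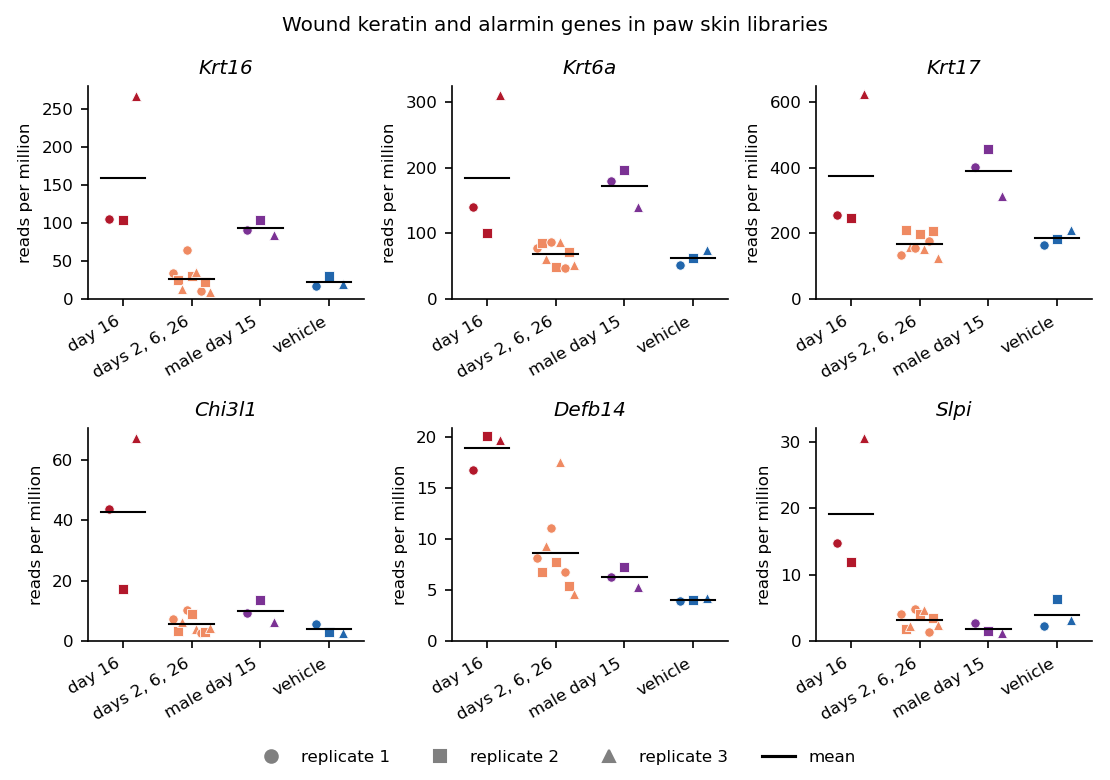
CPM (vertical axis) of 6 wound keratin and alarmin genes in each library of female day 16, female days 2, 6 and 26, male day 15 and female vehicle. Points are libraries, with the symbol giving the replicate number, and black lines are group means. For each gene but Defb14 all 3 day 16 points lie above all 9 points of the other treated days, and replicate 3 is the highest day 16 point in each panel but that of Defb14.

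Genes of this and the following groups that the naming rule did not give were chosen after their values were seen. Slpi, a secreted inhibitor of leukocyte proteases, had 14.8, 11.9 and 30.6 CPM at day 16, against 2.33, 6.29 and 3.16 in vehicle (2.27 ± 0.63, adjusted p = 0.0144, and 2.61 against the treated days, adjusted p = 0.00258). Lcn2, which binds bacterial siderophores, had 13.2, 3.995 and 10.7 at day 16, against 2.38, 2.02 and 1.87 in vehicle (2.15, adjusted p = 0.031, and 2.20, adjusted p = 0.0166). Stfa3, a stefin that inhibits cysteine proteases, rose by 1.59 against vehicle and by 0.97 against the treated days (adjusted p = 0.00189 and 0.0349). Stfa1 rose by 1.61 against vehicle (adjusted p = 0.00287) and had 0.29 against the treated days (adjusted p = 0.617). The low-level beta-defensin Defb4 passed in both comparisons (1.71 and 1.82). Il1f6 and Il1f8, which encode the interleukin 36 cytokines alpha and beta, moved apart against vehicle. Il1f6 rose by 0.65 (adjusted p = 0.00853) and Il1f8 fell, with a change of -0.53 (adjusted p = 0.0164). Neither passed against the treated days (0.38 and 0.11). Tnc, a matrix glycoprotein of healing tissue, and Areg, a ligand of the epidermal growth factor receptor, passed only against the treated days (1.18 and 1.22, adjusted p = 0.0146 and 0.0448). A gene on the opposite strand overlaps Tnc. Stfa1 and Stfa3 passed against vehicle without day 16 replicate 3. Slpi (1.75, adjusted p = 0.0713), Lcn2 (2.03, 0.0715), Defb4 (1.01, 0.297) and Il1f6 (0.51, 0.0558) did not. None of Slpi (2.11, adjusted p = 0.0606), Lcn2 (2.10, 0.101), Stfa3 (0.69, 0.275), Defb4 (1.14, 0.323), Tnc (0.64, 0.266) and Areg (0.70, 0.382) passed against the treated days without it. Without vehicle replicate 2, Lcn2 (adjusted p = 0.091), Defb4 (0.197) and Il1f8 (0.106) did not pass against vehicle. Against vehicle, the males had -1.09 for Slpi (adjusted p = 0.356) and 1.42 for Lcn2 (adjusted p = 0.245).

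S100a8 and S100a9, the subunits of the alarmin calprotectin, did not pass. S100a8 had 20.99, 10.9 and 51.7 CPM at day 16, against 1.46, 0.516 and 5.99 in vehicle (3.38 ± 1.22, adjusted p = 0.055). S100a9 had 25.3, 10.8 and 57.4 at day 16, against 0.595, 0.141 and 5.03 in vehicle (4.005 ± 1.54, adjusted p = 0.0713). Every day 16 library was above every vehicle library for both genes, as for 18.7% of all genes, and the replicates of each group spread several-fold. Il1b, the classical inflammatory interleukin, was low in both groups (0.662, 0.555 and 1.21 at day 16, against 0.270, 0.235 and 0.144 in vehicle). Of 15 neutrophil genes, 7 were tested, with medians of 1.16 against vehicle and 1.43 against the treated days. The summed level of the 15 was 61.78, 38.56 and 135.6 CPM at day 16, against 17.25, 14.27 and 26.93 in vehicle. S100a8 and S100a9 are among them, and keratinocytes make both as well. Of the others, Mmp9, a gelatinase of neutrophil granules, had 34, 41 and 144 reads at day 16, against 31, 23 and 52 in vehicle (1.16, adjusted p = 0.238). Csf3r, the receptor of the neutrophil growth factor G-CSF, had 16, 6 and 13 reads at day 16, against 4, 2 and 15 in vehicle (0.80, adjusted p = 0.599). The granule genes Mpo, Elane, Ltf, Ngp, Mmp8 and Camp had at most 8 reads in any of the 6 libraries. Cxcl1, a chemokine that draws neutrophils, was the 1 of 7 that passed (background 11.4% higher against vehicle and 2.64% against the treated days). It had 1.65, 1.11 and 2.85 CPM at day 16, against 0.379, 0.657 and 0.575 in vehicle (1.78, adjusted p = 0.0389, and 1.63 against the treated days, adjusted p = 0.044). Without day 16 replicate 3 it passed in neither (1.34, adjusted p = 0.161, and 1.22, adjusted p = 0.282).

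The count of wound genes that rose depended on single libraries. Without day 16 replicate 3 it was 5 against vehicle and 2 against the treated days, and without vehicle replicate 1 it was 7 against vehicle. The summed level of the list was 1381, 1391 and 2611 CPM at day 16, against 946.3, 1078 and 1048 in vehicle. All 3 day 16 libraries were above the 9 libraries of the other treated days (740.4 to 1251), and the males of day 15 lay at 1625 to 2018. Day 16 replicate 3 and the males also had the highest summed levels of hair keratins and KRTAPs among these libraries (1878 and 1080 to 1427 CPM). Which cells made the wound list RNA was not tested. With the mean muscle level as a covariate, 13 wound genes rose against vehicle and 14 against the treated days.

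Most hair keratins and KRTAPs rose at day 16 against the other treated days, with replicate 3 far above the other day 16 libraries. All 32 genes of the list were tested. Against days 2, 6 and 26, 26 rose and none fell (background 2.64% and 1.5%). Against vehicle 7 rose and none fell (background 11.4% and 10.3%), with a median log2 change of 1.86. Among the males of day 15, 4 rose against vehicle (background 2.11%), with a median of 2.41. The summed level was 225.9, 234.6 and 1878 CPM at day 16, against 197.5, 153.7 and 286.9 in vehicle. It was 6.086 to 73.88 on day 2, 9.756 to 143.5 on day 6 and 135.2 to 247.2 on day 26. Males of day 15 had 1080 to 1427. Day 16 replicates 1 and 2 thus lay within the vehicle range, and replicate 3 was above every male library. For 10 of the 32 genes all libraries of day 2 or of day 6 were at 0 reads, so their fitted change against the treated days depends on the prior count and is no measure of a fold.

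Krt71, a keratin of the inner root sheath, had 45.5, 70.6 and 603 CPM at day 16, against 36.3, 31.7 and 51.7 in vehicle (2.59 ± 1.34, adjusted p = 0.185). Tchh, or trichohyalin, which hardens the inner sheath and was counted with the cornified genes, had 84.5, 118 and 984 at day 16, against 40.5, 28.8 and 48.8 in vehicle (3.33 ± 0.90, adjusted p = 0.012). Every day 16 library was above every vehicle library for Tchh, and the change was 1.35 without replicate 3 (adjusted p = 0.215). Krt81, a keratin of the hair shaft, had 6.57, 3.83 and 41.2 at day 16, against 3.19, 1.27 and 3.59 in vehicle (2.68, adjusted p = 0.0359). Krtap9-1, a cross-linking protein of the shaft, had 1.28, 0.610 and 9.50 at day 16, against 0.216, 0 and 0.192 in vehicle (4.77 ± 1.05, adjusted p = 0.00353). Its vehicle libraries, at 0 to 0.216 CPM, rest on few reads, so the size of its change is uncertain. Krtap9-1 is the 1 list member that also passed against vehicle without day 16 replicate 3, at 2.77 (adjusted p = 0.0356). Against the treated days 13 hair genes passed without that library. The count of 7 against vehicle also depended on the vehicle libraries: it was 2 without replicate 1 and 1 without replicate 2 or 3. With only the compared groups in the fit no hair gene passed against vehicle and 17 passed against the treated days, and with a replicate block 3 passed against vehicle.

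The 8 largest rises against vehicle under the naming rule were 6 KRTAP-type genes, Tchh and Chi3l1. The KRTAP-type genes were Krtap16-7 (3.72), Krtap6-2 (3.54), Krtap1-3 (3.33), Krtap9-3 (3.15), Krtap1-5 (3.03) and Gm11563 (2.94), each with replicate 3 at 24.3 to 37.7 CPM and the other day 16 libraries at 3.00 to 9.41. Of 27 hair cycle regulators tested, 3 rose and 1 fell against vehicle (background 11.4% and 10.3%) and 3 rose against the treated days (background 2.64%). The count of 3 against vehicle was 1 without vehicle replicate 1 or 3 or day 16 replicate 3. Msx1, a homeobox factor, had 5.58, 5.44 and 6.09 at day 16, against 1.03, 1.31 and 1.63 in vehicle, a rise of 2.10 ± 0.24 (adjusted p = 4.85e-06). The other treated days had 5.31 to 11.4 and the change against them was -0.30 ± 0.18 (adjusted p = 0.389). Sonic hedgehog (Shh), a growth signal of the follicle, was low in both groups (0.615, 1.17 and 0.933 at day 16, against 0.108, 0.375 and 0.144 in vehicle).

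**Figure D2:**
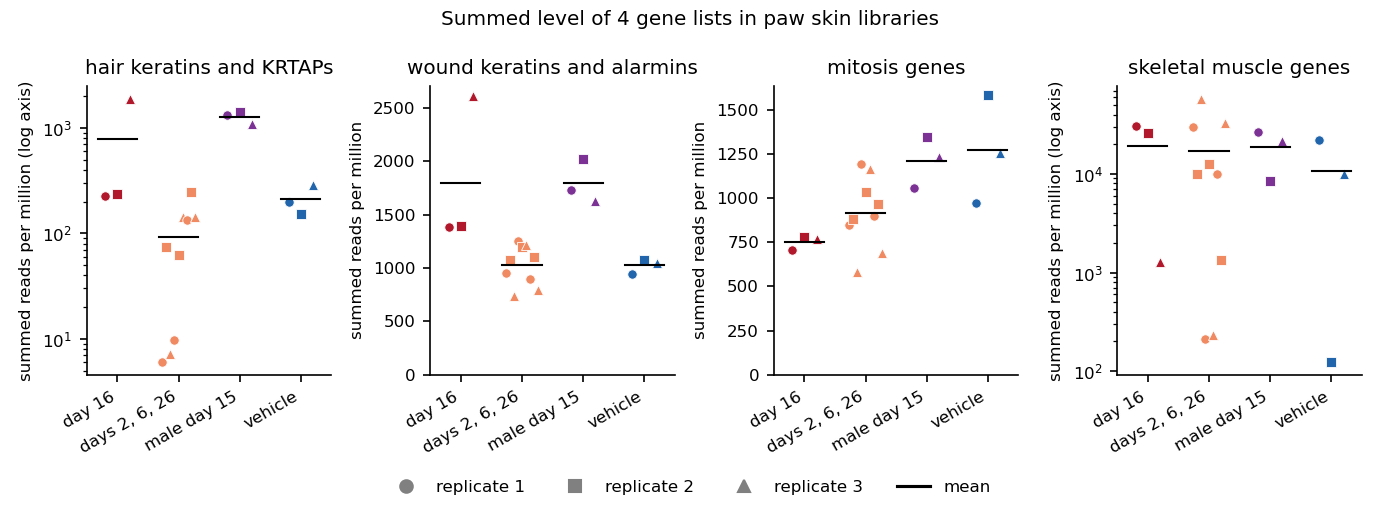
Summed CPM of 4 gene lists (32 hair, 26 wound, 30 mitosis and 28 skeletal muscle genes; log axes for hair and muscle) in each library of female day 16, female days 2, 6 and 26, male day 15 and female vehicle. Points are libraries, with the symbol giving the replicate number, and black lines are means. Day 16 replicate 3 is the highest day 16 library for hair and wound genes (1878 and 2611) and the lowest for muscle genes (1294).

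Cornified envelope genes were split. Of 30 genes 28 were tested, 4 rose and 5 fell against vehicle (background 11.4% and 10.3%), and 6 rose against the treated days (background 2.64%). Males of day 15 had 4 rises against vehicle (background 2.11%). Loricrin (Lor), the main envelope protein, had 8904, 8934 and 11750 CPM at day 16, against 3669, 5727 and 3493 in vehicle (1.20 ± 0.31, adjusted p = 0.00928). The other treated days had 3780 to 15640, a range that holds the day 16 values, and the change against them was -0.03 (adjusted p = 0.97). Males of day 15 gave -0.54 against vehicle (adjusted p = 0.329). Involucrin (Ivl), an early envelope protein, had 54.5, 52.9 and 83.99 at day 16, against 125, 152 and 124 in vehicle (-1.07 ± 0.22, adjusted p = 0.00172, and -0.55 against the treated days, adjusted p = 0.103). The late envelope genes Lce1b (-1.25), Lce1d (-1.18) and Lce1c (-0.76) and the small proline-rich Sprr2h (-1.13) fell with it against vehicle. The changes of these 4 against the treated days lay between -0.20 and 0.10. Sprr1a, a small proline-rich protein of stressed epidermis, had 73.2, 79.95 and 186 at day 16 and 33.9 to 69.4 on the other treated days (1.27, adjusted p = 0.00192), against 91.7, 103 and 95.5 in vehicle (0.22, adjusted p = 0.626). It rose in male day 15 against vehicle (1.43, adjusted p = 0.0109). Of the 6 that rose against the treated days, none passed without day 16 replicate 3. The counts against vehicle moved as well: 1 rose without day 16 replicate 3 or vehicle replicate 3, 2 without vehicle replicate 1 or 2, and 3 fell without vehicle replicate 2, day 16 replicate 1 or day 16 replicate 2. Of 24 epidermal keratin and adhesion genes none passed in any of the 3 comparisons; Krt14, of basal cells, gave 0.11 ± 0.20 (adjusted p = 0.742) and Krt1, of the upper layers, 0.19 ± 0.33 (adjusted p = 0.739) against vehicle.

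Most mitosis genes fell at day 16 against vehicle. All 30 were tested, and 19 fell and none rose against vehicle (background 10.3% and 11.4%), with a median log2 change of -0.68. Against the treated days 2 fell (background 1.5%), with a median of -0.38, and in male day 15 against vehicle none passed, with a median of -0.07 (background 2.11% higher and 2.29% lower). The summed level was 706.7, 780.0 and 769.5 CPM at day 16, against 972.2, 1585 and 1258 in vehicle. The other treated days spanned 580.2 to 1196, a range that holds the day 16 libraries. Of 26 DNA replication genes 3 rose and 1 fell against vehicle (background 11.4% and 10.3%), with a median of 0.10. Against the treated days none rose and 2 fell (background 2.64% and 1.5%), with a median of -0.08. None fell against the treated days when any 1 day 16 library was left out. The count of 3 was 1 without vehicle replicate 1 or 3 or day 16 replicate 2, and 9 with the muscle level as a covariate. Cyclin E2 (Ccne2), which acts at the start of replication and overlaps a gene on the opposite strand, rose by 1.33 ± 0.24 against vehicle (adjusted p = 0.000478). Cdc45, which overlaps Ufd1 on the opposite strand, fell against vehicle (-0.73, adjusted p = 0.00095) and against the treated days (-0.46, adjusted p = 0.0337).

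Mki67, a protein of the surface of mitotic chromosomes and the usual mark of cycling cells, had 148, 169 and 149 CPM at day 16, against 272, 438 and 358 in vehicle. The groups did not overlap, and the change was -1.20 ± 0.29 (adjusted p = 0.00546). The other treated days had 62.96 to 210.1, with a change against them of 0.10 ± 0.23 (adjusted p = 0.873). Its change in male day 15 against vehicle was -0.09 (adjusted p = 0.891). Cdca3, a trigger of mitotic entry, had 18.9, 22.5 and 17.1 at day 16, against 37.05, 60.4 and 39.8 in vehicle (-1.23 ± 0.20, adjusted p = 0.00019). Nusap1, which bundles spindle microtubules, had 18.6, 19.1 and 16.7 at day 16, against 33.8, 50.2 and 34.98 in vehicle (-1.13 ± 0.16, adjusted p = 6.87e-05) and also fell against the treated days (-0.63 ± 0.14, adjusted p = 0.0126). Its exons overlap those of Oip5 on the opposite strand. The spindle checkpoint kinase Bub1b was the other gene that fell in both comparisons (-0.58 and -0.60, adjusted p = 0.00774 and 0.00963). Aurka (-0.70), its activator Tpx2 (-0.74), Birc5 of the chromosomal passenger complex (-0.91) and the mitotic kinase Cdk1 (-0.61) fell against vehicle and did not pass against the treated days. Top2a, which untangles chromosomes, and Ccnb1, cyclin B1, did not pass (-0.47 ± 0.21 and -0.19 ± 0.19, adjusted p = 0.116 and 0.518). Melk, a kinase of dividing cells outside the list, fell in both comparisons (-0.83 and -0.67, adjusted p = 0.0114 and 0.0487).

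Vehicle replicate 2, with the least muscle RNA, had the highest level of the mitosis list. Without it 4 mitosis genes fell against vehicle, among them Mki67 at -1.03 (adjusted p = 0.0289), Cdca3 at -0.99 (0.0016) and Nusap1 at -0.93 (0.000659). Without day 16 replicate 1 the count was 10, without day 16 replicate 2 it was 11, and with only the day 16 and vehicle libraries in the fit it was 12. With the muscle level as a covariate it was 19. The count of 2 against the treated days was 1 without day 16 replicate 1 and 0 without day 16 replicate 3, and it was 4 with DESeq2 and 6 with the muscle covariate.

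The bases before the start of 3 of the genes that fell are shown because mitotic genes often carry CCAAT boxes, bound by NF-Y, and the cell cycle element TTTGAA. They are from RefSeq on GRCm38.p6, 120 bases up to the base before the start, on the gene's strand, with CCAAT and TTTGAA of either strand in capitals (the opposite strand reads ATTGG and TTCAAA).
Mki67, chr7:135716380-135716499, minus strand: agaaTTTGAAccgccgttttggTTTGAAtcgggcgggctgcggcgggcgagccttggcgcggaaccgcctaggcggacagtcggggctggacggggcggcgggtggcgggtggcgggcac
Cdca3, chr6:124830056-124830175, plus strand: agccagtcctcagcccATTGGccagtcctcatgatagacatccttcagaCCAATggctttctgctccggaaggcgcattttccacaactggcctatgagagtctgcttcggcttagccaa
Cdk1, chr10:69352913-69353032, minus strand: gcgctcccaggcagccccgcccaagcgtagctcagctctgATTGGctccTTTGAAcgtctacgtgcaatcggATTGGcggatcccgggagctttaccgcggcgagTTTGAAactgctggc
Within these bases Mki67 held TTTGAA at 2 places and no CCAAT, Cdca3 held CCAAT on both strands, and Cdk1 held each motif at 2 places. In the 250 bases before the start, CCAAT on either strand was in 22 of the 25 mitosis genes with a promoter found and in 33.8% of all 32851 promoters searched. A listed gene counts if any of its promoters holds the motif, while the share over all is per promoter, so the shares differ in unit. TTTGAA was in 10 of the 25 and in 16.0% of all. Of the 22 hair genes with a promoter found, 15 held CCAAT and 11 held TTTGAA. In the 120 bases shown for each gene the 2 motifs did not overlap each other.

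Immediate early genes, which are switched on within minutes by growth factors or stress, were lower at day 16 than in vehicle for a subset. Of 25 tested, 6 fell and 2 rose against vehicle (background 10.3% and 11.4%). Against the treated days none fell and 2 rose (background 1.5% and 2.64%), with a median log2 change of 0.01. In male day 15 against vehicle none fell and 1 rose (background 2.29% and 2.11%). Fos had 15.4, 11.2 and 12.96 CPM at day 16, against 35.4, 149 and 258 in vehicle. The vehicle libraries spread widely, and the lowest of them was above every day 16 library. The change was -3.48 ± 0.62 (adjusted p = 0.000474), the other treated days spanned 6.67 to 106, and the change against them was -1.42 ± 0.51 (adjusted p = 0.125). Egr1, a zinc finger factor, had 33.1, 41.0 and 39.2 at day 16, against 87.03, 160.3 and 298 in vehicle (-2.27 ± 0.41, adjusted p = 0.000543, and -0.86 against the treated days, adjusted p = 0.166). Dusp1, a phosphatase of MAP kinases, had 99.4, 95.8 and 81.8 at day 16, against 174, 374 and 422 in vehicle (-1.81 ± 0.31, adjusted p = 0.000331, and -0.91, adjusted p = 0.0539). Zfp36, which destabilizes AU-rich messages and overlaps a gene on the opposite strand, fell against vehicle (-1.53 ± 0.24, adjusted p = 0.000153). So did Fosb (-2.34, adjusted p = 0.0206, and 0.073 without day 16 replicate 3) and Egr3 (-0.74, adjusted p = 0.0067). Against the treated days Fosb had -0.52 (adjusted p = 0.68) and Egr3 0.16 (adjusted p = 0.629). In male day 15 against vehicle Fos had -1.02 ± 0.56 (adjusted p = 0.313) and Egr1 0.49 ± 0.39 (adjusted p = 0.509).

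Other members did not follow. Jun (-0.28, adjusted p = 0.334), which has an antisense partner, Junb (-0.28, adjusted p = 0.368), which overlaps Prdx2, and Ier2 (-0.01, adjusted p = 0.981) did not pass. Fosl1, which replaces Fos in AP-1 in migrating keratinocytes, had 6.10, 5.94 and 6.70 CPM at day 16, against 1.14, 1.17 and 1.53 in vehicle, a rise of 2.28 ± 0.46 (adjusted p = 0.00139). Its exons overlap Ccdc85b on the opposite strand, the other treated days had 1.53 to 5.28, and the change against them was 1.17 ± 0.33 (adjusted p = 0.0516). Nr4a3, an orphan nuclear receptor, had 8.84, 3.88 and 2.52 at day 16, against 3.52, 1.78 and 3.55 in vehicle (0.79, adjusted p = 0.249), and passed against the treated days, which had 0.227 to 2.62 (2.56 ± 0.37, adjusted p = 0.000436). Leaving out any 1 library of the groups left 5 or 6 falls against vehicle.

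**Figure D3:**
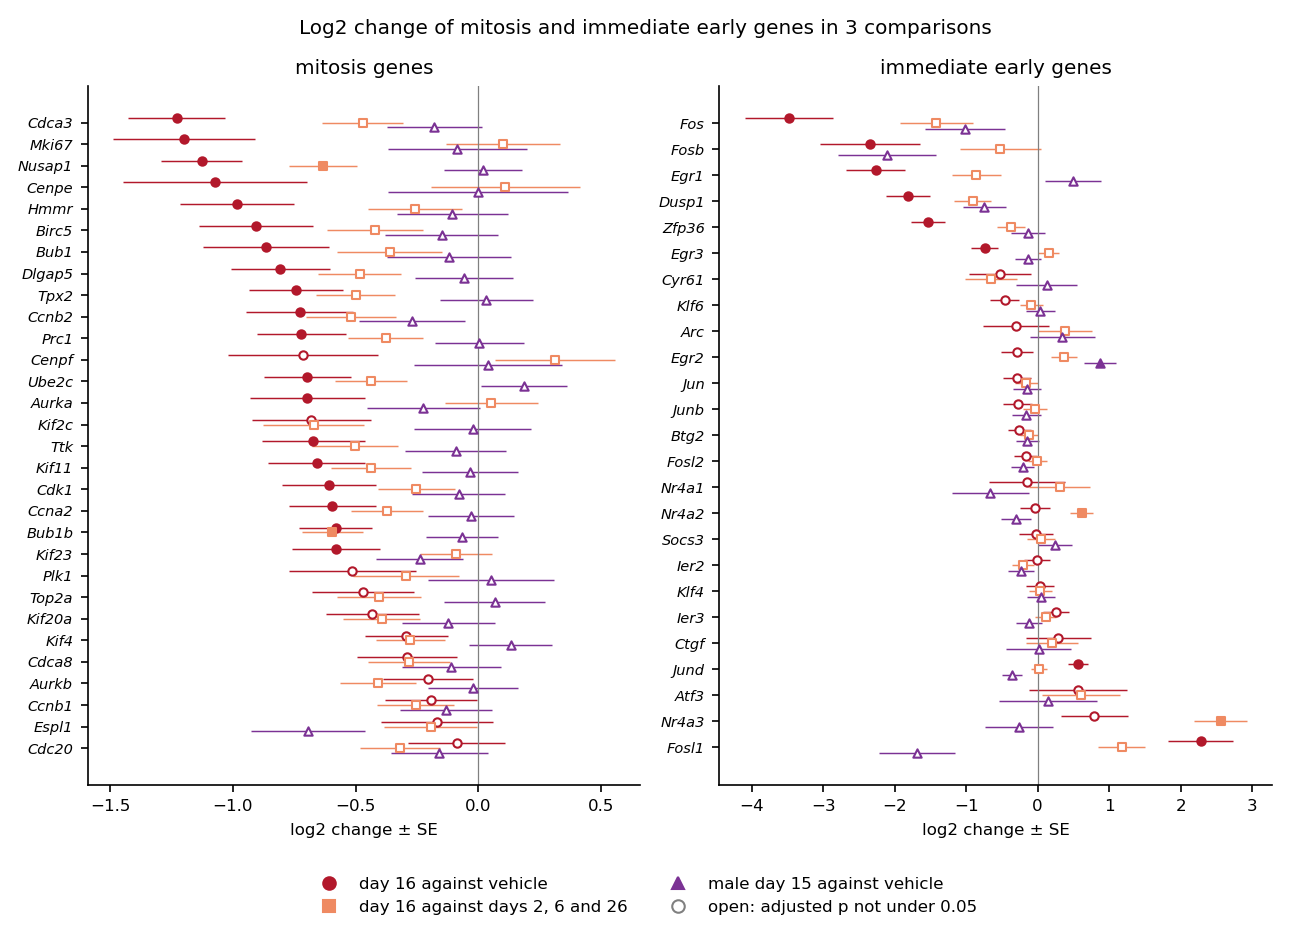
Log2 change (horizontal axis) of 30 mitosis and 25 immediate early genes (rows) in day 16 against vehicle, day 16 against days 2, 6 and 26, and male day 15 against vehicle. Points are fitted changes, lines are ± 1 standard error, and open points did not pass at an adjusted p under 0.05. For the mitosis genes 19 red points are filled, 2 orange and no purple ones.

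The promoters of Fos and Fosb are shown for the core of the cyclic AMP response element, TGACG, a known docking site of CREB and ATF factors at such genes. Both are from RefSeq on GRCm38.p6, 120 bases up to the base before the start, with TGACG of either strand in capitals (CGTCA where the opposite strand reads it).
Fos, chr12:85473770-85473889, plus strand: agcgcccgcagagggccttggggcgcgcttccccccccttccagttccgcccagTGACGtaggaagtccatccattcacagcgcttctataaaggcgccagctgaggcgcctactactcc
Fosb, chr7:19310046-19310165, minus strand: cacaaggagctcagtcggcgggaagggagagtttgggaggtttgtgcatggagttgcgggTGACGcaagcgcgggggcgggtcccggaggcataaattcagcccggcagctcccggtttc
Each held TGACG at 1 place on the gene's own strand, 66 and 60 bases before the start for its first base. TGACG on either strand was in the 250 bases before the start of 12 of the 19 immediate early genes with a promoter found. It was in 17.8% of all promoters searched, a share counted per promoter and not per gene.

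Antioxidant genes rose in part. All 25 were tested, 8 rose and 1 fell against vehicle (background 11.4% and 10.3%), and 4 rose and none fell against the treated days (background 2.64% and 1.5%). In male day 15 against vehicle none passed. Slc7a11, which imports cystine for glutathione, had 38.6, 45.1 and 72.7 CPM at day 16, against 18.2, 21.3 and 14.5 in vehicle. The day 16 libraries were above all vehicle libraries and above the 10.99 to 35.2 of the other treated days (1.53 ± 0.32, adjusted p = 0.00198, and 1.36 ± 0.24, adjusted p = 0.00305). Nfe2l2 encodes NRF2, the main activator of antioxidant genes. It had 83.7, 90.9 and 111 at day 16, against 78.6, 73.1 and 74.6 in vehicle (0.34 ± 0.11, adjusted p = 0.0419, and 0.47 ± 0.09, adjusted p = 0.00602). Txnrd1, thioredoxin reductase, rose by 0.34 and 0.38 (adjusted p = 0.0334 and 0.0181). Gclc, the catalytic subunit of glutamate-cysteine ligase, passed against the treated days only (0.65 ± 0.08, adjusted p = 0.000183), with 0.14 against vehicle. Nqo1 (0.80) and Gstp1 (1.25) passed against vehicle only. Hmox1, a classical NRF2 target, did not pass (0.05 ± 0.15 against vehicle, adjusted p = 0.848), and catalase (Cat) fell (-0.79 ± 0.13, adjusted p = 0.000262).
The count of rises against vehicle was 4 or 5 without vehicle replicate 1 or 3 or without any 1 day 16 library, and against the treated days it was 1 without day 16 replicate 3. Without that library the change of Slc7a11 was 1.21 against vehicle (adjusted p = 0.0165) and 1.05 against the treated days (adjusted p = 0.0797). Nfe2l2 and Txnrd1 then passed in neither comparison (adjusted p 0.106 to 0.273), and Gclc passed against the treated days (0.59, adjusted p = 0.00765). Without vehicle replicate 2, Nfe2l2, Txnrd1 and Nqo1 did not pass against vehicle (adjusted p 0.0593 to 0.15).

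Circadian clock genes differed in several arms of the loop. Of 19 tested, 7 rose and 3 fell against vehicle (background 11.4% and 10.3%), 2 rose against the treated days (background 2.64%), and 4 rose and 3 fell in male day 15 against vehicle (background 2.11% and 2.29%). The labels do not give the time of day of sampling. Per2, a repressor of the loop, had 80.03, 51.2 and 67.1 CPM at day 16, against 39.7, 13.3 and 17.4 in vehicle. Every day 16 library was above every vehicle library and above the other treated days at 8.73 to 50.5 (1.496 ± 0.41, adjusted p = 0.0125, and 1.65 ± 0.30, adjusted p = 0.00397). No values without single libraries are given for Per2. Hlf, an output factor, also rose in both (0.44 and 0.56, adjusted p = 0.0461 and 0.0116) and was lower in males of day 15 than in vehicle (-0.74, adjusted p = 0.0137). Dbp, another output factor, whose exons overlap Sphk2 on the opposite strand, had 64.4, 68.97 and 69.1 at day 16, against 13.8, 19.2 and 12.8 in vehicle (2.14 ± 0.17, adjusted p = 2.72e-08). It did not pass against the treated days (-0.18, adjusted p = 0.48) and was also higher in the males (1.20, adjusted p = 0.000646). The activators Npas2 and Arntl fell against vehicle at day 16 (-1.55 ± 0.20 and -0.73 ± 0.14, adjusted p = 1.75e-05 and 0.00109) and in the males (-0.93 and -0.56, adjusted p = 0.0141 and 0.033), and neither passed against the treated days (-0.33 and 0.04). Without vehicle replicate 2 the count of rises against vehicle was 4, and without day 16 replicate 3 that against the treated days was 1. Hlf then passed in neither comparison (0.31, adjusted p = 0.221, and 0.46, adjusted p = 0.141), nor against vehicle without vehicle replicate 2 (0.30, adjusted p = 0.234).

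**Figure D4:**
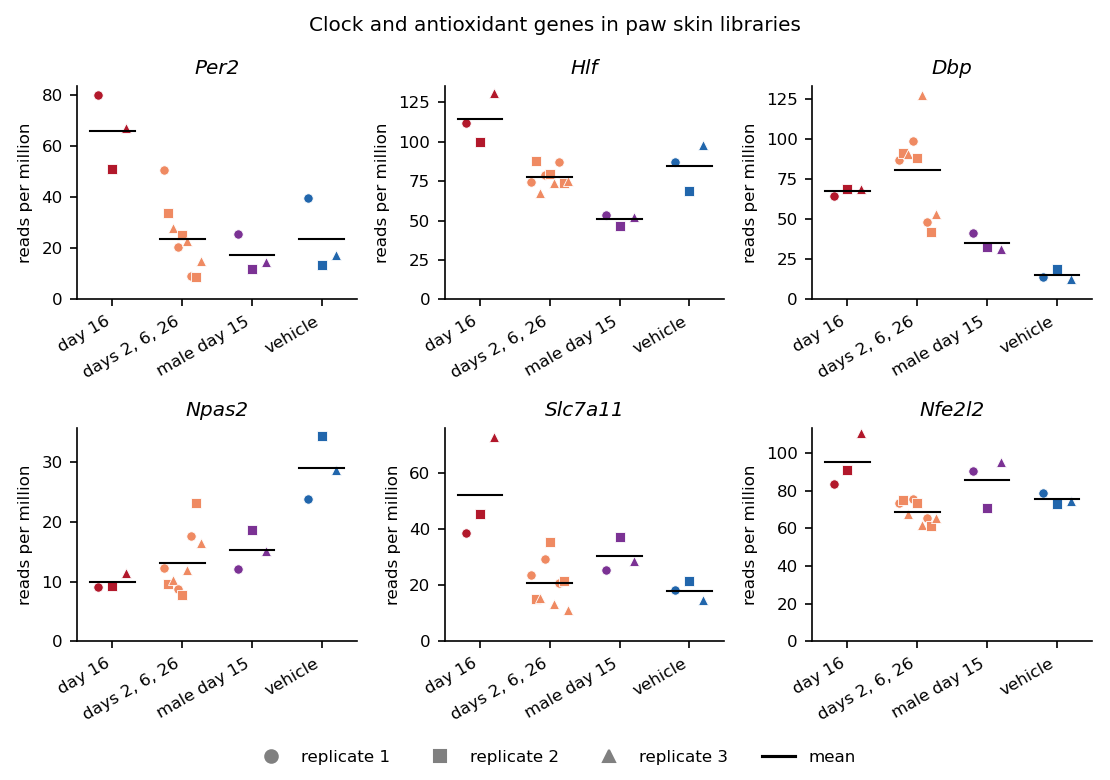
CPM (vertical axis) of 4 clock genes and 2 antioxidant genes in each library of female day 16, female days 2, 6 and 26, male day 15 and female vehicle. Points are libraries, with the symbol giving the replicate number, and black lines are group means. For Per2, Hlf, Slc7a11 and Nfe2l2 all 3 day 16 points lie above the points of the other treated days and of vehicle, while for Dbp and Npas2 the day 16 points lie within the range of the other treated days and apart from vehicle.

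Several groups had members that passed against vehicle and none that passed against the other treated days. Of 32 respiratory chain genes, 14 rose and 1 fell against vehicle (background 11.4% and 10.3%), with a median of 0.43, while none passed against the treated days (median -0.04) or in the males (median 0.10). Ndufc1, of complex I, had 29.7, 28.4 and 26.02 CPM at day 16, against 17.7, 13.0 and 12.5 in vehicle and 26.9 to 37.03 on the other treated days (0.96 ± 0.16, adjusted p = 0.000227). Cox8a, of complex IV, went the other way, with 65.8, 61.4 and 69.3 at day 16, against 114, 141 and 126 in vehicle (-0.95 ± 0.11, adjusted p = 4.36e-06). Among genes without overlap or pseudogene, 8 respiratory genes rose, and without day 16 replicate 1 the count was 9. Of 34 ribosomal protein genes, 13 rose and 4 fell against vehicle (background 11.4% and 10.3%) and none passed in the other comparisons. Only 6 of the 34 had neither an overlap nor a named pseudogene, so these counts are uncertain. In a fit of such genes 2 ribosomal protein genes rose and 1 fell against vehicle. Rpl37, which has a named pseudogene, had 69.01, 68.1 and 80.1 at day 16, against 4.43, 8.54 and 5.75 in vehicle, 72.4 to 112 on the other treated days and 3.48 to 4.74 in the males. Its 12 treated female libraries were all above its vehicle and male libraries.

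The largest falls against vehicle included 4 genes with no such change in the other comparisons. Cabyr, a calcium-binding protein known from the sperm tail, had 0.473, 0.444 and 0.329 CPM at day 16, against 8.71, 12.3 and 11.1 in vehicle (-4.66 ± 0.32, adjusted p = 7.5e-09), and the other treated days had 0.127 to 0.511. Dcdc2b, a doublecortin domain protein, had 0.756, 1.05 and 0.604 at day 16, against 13.9, 13.1 and 11.9 in vehicle (-4.005 ± 0.25, adjusted p = 1.4e-09). Xrcc3, of recombination repair, gave -2.27 ± 0.17 (adjusted p = 1.4e-08) and Trpv6, a calcium channel of epithelia, -2.16 ± 0.23 (adjusted p = 1.45e-06). Against the treated days these 4 had 0.40, 0.04, -0.36 and -0.54, and none passed. In male day 15 against vehicle they had -0.49, -0.21, -0.34 and -0.07, and none passed either. The other 4 of the 8 largest falls were Fos, Fosb, Egr1 and 2310042D19Rik, which had 46.9, 34.5 and 1.92 at day 16, against 274, 284 and 253 in vehicle (-3.28, adjusted p = 0.0212, and -2.74, adjusted p = 0.0523, without day 16 replicate 3).

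Among genes without overlap or pseudogene, 938 rose and 799 fell against vehicle under the naming rule, with libraries that did not overlap. Of these, 39 rises and 29 falls also passed against the treated days in the same direction, again with libraries that did not overlap. Over all genes tested, the day 16 libraries lay above those of the treated days for 2.13% and below for 2.07%. Both comparisons share the day 16 libraries. The 10 rises with the largest smaller change were Chi3l1, Krt16 and 8 hair genes: Gm11563, Krtap1-3, Krtap9-3, Krtap1-4, Krtap4-9, Krt26, Krt81 and Prr9. Prr9, a proline-rich protein of the hair shaft and cornified layer, had 16.2, 15.3 and 109 CPM at day 16, against 7.52, 5.30 and 8.15 in vehicle (2.75 ± 0.62, adjusted p = 0.00356, and 2.87 against the treated days, adjusted p = 0.00072). Neither call held without day 16 replicate 3 (1.15, adjusted p = 0.0705, and 1.30, adjusted p = 0.0881). Among the 10 falls Fah, the last enzyme of tyrosine breakdown, had 5.91, 5.94 and 3.62 at day 16, against 11.1, 13.5 and 12.1 in vehicle (-1.25 ± 0.20, adjusted p = 0.000238), with 8.36 to 13.9 on the other treated days (-0.89, adjusted p = 0.00683). Fmo5, a flavin monooxygenase, had 15.8, 17.03 and 18.2 at day 16, against 30.99, 32.6 and 30.2 in vehicle (-0.88 ± 0.13, adjusted p = 8.37e-05), with 22.01 to 35.6 on the other treated days (-0.66, adjusted p = 0.00167). Cntrob, a centriole protein, fell by similar amounts (-0.83 and -0.67, adjusted p = 0.000185 and 0.00177), as did the apelin receptor Aplnr of blood vessels (-1.004 and -0.71, adjusted p = 0.00237 and 0.0337). The others were Melk, Ankrd24, the end-joining factor Nhej1, the transmembrane collagen Col13a1, Mesp2 and the interferon-induced Ifit3. Without day 16 replicate 3, Ankrd24, Cntrob and Fmo5 passed against the treated days and the other 7 did not (adjusted p 0.0707 for Mesp2 to 0.228 for Aplnr), and Nhej1, Col13a1 and Ifit3 did not pass against vehicle (0.17, 0.109 and 0.0599). Without vehicle replicate 2, Melk, Nhej1 and Col13a1 did not pass against vehicle (0.103, 0.127 and 0.0548). Ifit3 had 1.61, 1.28 and 0.878 at day 16, against 4.17, 2.16 and 4.74 in vehicle (-1.54, adjusted p = 0.0144, and -1.43, adjusted p = 0.0385). Oasl2, also induced by interferon, fell in both as well (-1.09 and -1.16, adjusted p = 0.0353 and 0.0407), and these were 2 of the 4 falls among 23 interferon genes against vehicle (background 10.3%). Neither passed in either comparison without day 16 replicate 3. Against the treated days 2 fell (background 1.5%) and 1 rose (background 2.64%). The rise was Irf7, a factor that drives interferon production (0.69, adjusted p = 0.0165, and 0.65, adjusted p = 0.112, without day 16 replicate 3), with 0.05 against vehicle (adjusted p = 0.888). The count of 4 was 1 without vehicle replicate 1 or day 16 replicate 3 and 2 without vehicle replicate 3, day 16 replicate 1 or day 16 replicate 2.

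Of 22 tubulin and microtubule partner genes 1 rose and 4 fell against vehicle (background 11.4% and 10.3%), and 1 rose and 1 fell against the treated days (background 2.64% and 1.5%). Against vehicle the alpha-tubulin Tuba1b rose (1.43, adjusted p = 5.85e-06). Dcdc2b, the microtubule destabilizer Stmn1 (-1.17, adjusted p = 0.000767), the gamma-tubulin Tubg1 (-0.45, adjusted p = 0.00214) and the alpha-tubulin Tuba8 (-0.42, adjusted p = 0.0476) fell. Counts of Tuba1b, Stmn1 and Tuba8 are uncertain through an overlap or a named pseudogene. None of these 5 passed against the treated days. Tubb3, the neuronal beta-tubulin, was the rise against the treated days (0.67, adjusted p = 0.0309; a named pseudogene makes it uncertain), and Stmn2, a microtubule regulator of axons, the fall (-0.64, adjusted p = 0.014). Neither passed against vehicle (0.43 and -0.26), nor against the treated days without day 16 replicate 3 (adjusted p = 0.208 and 0.0865). Of 17 sensory factor genes tested, only Nrtn, a ligand of the GDNF family, passed against vehicle (background 21.7% in either direction), with 31.6, 41.7 and 48.2 CPM at day 16, against 12.6, 22.6 and 17.2 in vehicle (1.21 ± 0.24, adjusted p = 0.00107) and 30.01 to 52.8 on the other treated days (-0.06, adjusted p = 0.913).

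Of 29 fibroblast matrix genes 3 rose against vehicle (background 11.4%) and none against the treated days, while 13 rose in male day 15 against vehicle (background 2.11%). Col1a2, a chain of type I collagen, had 974, 712 and 732 CPM at day 16, against 359, 251 and 452 in vehicle (1.19 ± 0.32, adjusted p = 0.0107), and Postn, or periostin, rose by 1.06 (adjusted p = 0.011). The other was Vim, vimentin (0.63, adjusted p = 0.0357). The count of 3 was 0 without vehicle replicate 2, 5 without day 16 replicate 3 and 7 with DESeq2. None of 25 macrophage, 16 Langerhans cell and MHC class II or 14 mast cell genes passed in either comparison of day 16. Cd207, langerin of Langerhans cells, had 19.2, 14.1 and 23.4 at day 16, against 25.3, 19.01 and 22.6 in vehicle (-0.24 ± 0.27, adjusted p = 0.583). Of 13 T cell genes, Il7r, the interleukin 7 receptor, rose against the treated days (0.83, adjusted p = 0.014, background 2.64%). It did not pass without day 16 replicate 3 (0.69, adjusted p = 0.143). In the same list Cd247 fell against vehicle (-3.33, background 10.3%, with Pou2f1 overlapping on the opposite strand). Cd247, a chain of the T cell receptor complex, had 1.32, 1.44 and 0.878 at day 16, against 12.3, 12.01 and 12.4 in vehicle, 0.596 to 1.83 on the other treated days and 12.3 to 12.8 in the males.

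**Figure D5:**
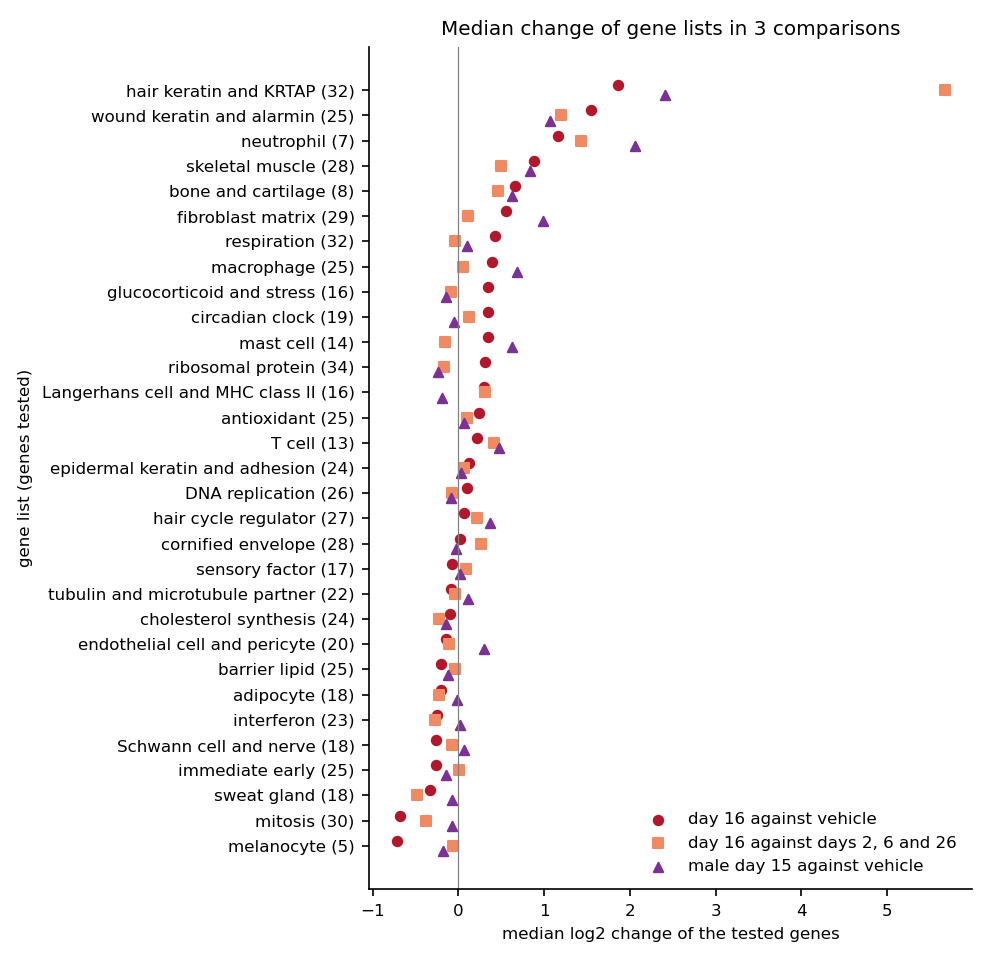
Median log2 change (horizontal axis) of the tested genes of 31 gene lists (rows, genes tested in parentheses) in day 16 against vehicle, day 16 against days 2, 6 and 26, and male day 15 against vehicle. Each point is the median of a list, and the erythroid list, with 2 genes tested, is left out. Hair and wound lists lie to the right in all 3 comparisons. So do several others, among them the neutrophil (1.16, 1.43 and 2.06) and skeletal muscle (0.88, 0.5 and 0.83) lists. The mitosis median is -0.68 against vehicle, -0.38 against the treated days and -0.07 in males.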

How the data were processed

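The deposited values are whole-number counts of reads per gene, 1 file a library. Per the submitters' processing notes, bcl2fastq, TopHat2 and HTSeq were used with genome build mm9. Versions, annotation and the strand setting are not given in the sources used here. Rows that name no gene were dropped before scaling. Reads in no gene were 15.93% to 17.0% at day 16 and 20.05% to 21.55% in vehicle. All 24 paw libraries (8 groups of 3) were fitted together with edgeR 4.0.16 in R 4.3.3: trimmed mean of M-values scaling (factors 0.94 to 1.08), edgeR's expression filter (15346 genes kept), the quasi-likelihood F test and Benjamini-Hochberg adjustment over all genes tested. The common biological coefficient of variation was 0.244. The standard error is the absolute log2 change divided by the square root of F. A prior count of 2 entered the log2 CPM values only, and the fitted changes used edgeR's default prior count. The code was tested on simulated data.

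The naming rule took 8 rises and 8 falls of greatest size against vehicle, among genes without overlap whose libraries did not overlap and whose mean log2 CPM was at least 1, up to 10 each that also passed against the treated days, up to 5 of each list with the smallest p, and a fixed set. The members and lists were chosen with earlier results of these data known. Lists are described by counts and medians. Gene overlaps, names and promoters came from GENCODE and RefSeq tables on GRCm38.p6, matched by symbol. Files of the other tissue were not analysed here. Alternatives were another scaling, no filter, DESeq2 1.42.0, a replicate block, a muscle covariate, genes without overlap, only the compared groups, and each library left out.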

Additional observations from a re-analysis of the deposited data

Results flagged for a closer look

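For 12 genes of the hair follicle, day 16 and the mean of days 2, 6 and 26 moved in opposite directions from the same vehicle libraries, and the difference between them passed edgeR's quasi-likelihood test over all genes. The 12 were sought among genes already named, and a passing difference was required, so its passing is no further support. The summed level of the hair list on day 26 (135.2 to 247.2 CPM) overlapped that of vehicle (153.7 to 286.9). Days 2 and 6 reached at most 73.88 and 143.5. The difference, day 16 minus the other treated days on the log2 scale, was 6.71 for Gm11563, 5.12 for Krt26, 6.62 for Krt34, 5.87 for Krt81, 5.54 for Krt86 and 6.72 for Krtap1-3. It was 6.28 for Krtap1-4, 6.71 for Krtap1-5, 6.12 for Krtap4-2, 6.9 for Krtap4-9, 6.21 for Krtap9-3 and 4.32 for Tchhl1. For Gm11563, Krt34, Krtap1-3 and Krtap4-9 every day 2 library was at 0 reads, so these fitted differences depend on the prior count. They are given as what the test used and are no measure of a fold. Tchhl1, which had 3 to 9 reads on day 2, 4 to 9 on day 6 and 12 to 41 on day 26, was read in every one of these libraries. Day 16 replicate 3 was the highest library for all 12 genes. Without it none of the 12 passed against vehicle (0.53 for Krt26 to 1.63 for Krtap1-3), while against the other treated days all but Krt26 passed (2.93 for Krt26, adjusted p = 0.0766, and 2.74 for Tchhl1, adjusted p = 0.0109).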

How the results depend on the processing

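Day 16 against vehicle gave 3331 genes, day 16 against the other treated days 635 and male day 15 against vehicle 676. With DESeq2 the counts were 3686, 1021 and 1127, with the muscle level as a covariate 4142, 1002 and 712, among genes without overlap or pseudogene 1826, 497 and 479, and with only the compared groups in the fit 2372, 173 and 838. Relative log expression scaling gave 3335, 653 and 674, and no low-count filter 3118, 510 and 517. Leaving out 1 library at a time gave 2327 to 2753, 107 to 946 and 126 to 456. The count of 107 was without day 16 replicate 3, 946 without day 2 replicate 1, and 126 without vehicle replicate 2. In either comparison of day 16, no named gene that passed in the main fit or in a setting changed direction between them. The balance within a list could change. Of the cornified envelope genes 4 rose and 5 fell against vehicle in the main fit, and 4 rose and 3 fell without day 16 replicate 1 or 2. The cause of these shifts was not tested, except that genes without overlap are fewer by construction (10088 tested). A replicate block gave 3492, 691 and 733 genes. The replicate numbers do not pair the libraries: same-numbered day 16 and vehicle libraries correlated at 0.65, -0.46 and -0.39 in their deviations from the group means, and day 16 replicate 3 correlated most with vehicle replicate 2 (0.68). Low reads limit the hair genes and the neutrophil markers, of which 7 of 15 could be tested.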
